A study of Mus musculus with 12 samples.

Results

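AMP-activated protein kinase (AMPK) is built from a catalytic alpha subunit, a scaffolding beta subunit and a nucleotide-binding gamma subunit, and mammals have several genes for each. The 7 subunit genes of the mouse (Prkaa1, Prkaa2, Prkab1, Prkab2, Prkag1, Prkag2 and Prkag3) were read from expression arrays of MLL-AF9 leukemia with and without AMPK. A member was any probe set that the platform annotation gives exactly 1 of these symbols. Each of the 7 genes had 1 such probe set, and all 7 were among the 17749 genes kept after dim genes were left out, of 22180 genes with a probe set of 1 symbol. The 12 arrays formed 4 groups of 3: whole leukemia and L-GMP, each from AMPKfl/fl (wild type) and from AMPKΔ/Δ (knockout) cells. All donors' cells expressed MLL-AF9, a fusion oncogene of acute myeloid leukemia, and the strain of every sample was C57BL/6J. Recipient mice received 10 Gy and 50000 progenitor and stem cells, and 5000 GFP+ cells per sample were later sorted from bone marrow when each recipient became leukemic. L-GMP, the leukemic granulocyte-macrophage progenitor, was the GFP+ fraction that was also lin-, c-kit+, CD16/32+ and CD34+. The labels give no age, do not name the recombinase that deleted the floxed alleles and do not say which subunit genes carried them. They do not say either that replicates came from separate animals, so the p-values below rest on the variation among these arrays, part or all of which may be technical.

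AMPK senses cellular energy. When ATP falls, AMP and ADP bind the gamma subunit, upstream kinases led by LKB1 phosphorylate the activation loop of the alpha subunit, and the active kinase restrains anabolic pathways such as fatty acid and cholesterol synthesis while it favours catabolism and autophagy. In blood-forming cells alpha 1 is known as the main catalytic form, whereas alpha 2 and gamma 3 are best known from muscle. An alpha subunit is required for kinase activity, and beta carries the site through which alpha and gamma join.

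Values are log2 intensities of probe sets. They show how one gene differs between samples. Probe sets differ in brightness, so a probe set's distance from the cut for dim genes says how it was measured and does not rank genes by transcript level. The cut for dim genes lay at 4.72, below which were the lowest 25% of probe sets. Array medians ran from 36.9 to 39.3 in linear intensity. Knockout whole leukemia array 2 stood apart from the others on the first principal component (67.4, against -24.2 to 18.5 for the other 11 arrays), and its erythroid marker mean was 9.31 against 4.99 to 6.05 elsewhere. Its neutrophil marker mean of 11.5 was also the highest, against 6.00 to 9.99 in the other arrays. Knockout L-GMP array 2 had the highest eosinophil and mast cell marker mean, 8.63 against 5.59 to 7.0. Cd34, a gene of the sorting gate, measured 9.76 ± 0.25 (SD, n = 3) in wild-type and 9.67 ± 0.22 in knockout L-GMP, and 8.74 ± 0.56 and 6.41 ± 0.78 in wild-type and knockout whole leukemia. Kit, the gene of c-Kit, measured 7.56 ± 0.55 and 8.64 ± 0.90 in wild-type and knockout L-GMP. Group means of the genes of CD16/32 ran from 8.94 to 9.27 for Fcgr3 and from 6.85 to 7.42 for Fcgr2b. As these are sorted pools, fewer cells with a transcript and less transcript per cell cannot be told apart.

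The promoters of the catalytic genes Prkaa1 and Prkaa2 are shown because these paralogs encode the alternative alpha subunits, the part of the complex that carries its activity. Each line gives the 250 bases before the annotated RefSeq start in GRCm38.p6, with matches to the GC box GGGCGG or its reverse complement CCGCCC in capitals. Prkaa1 lies on chromosome 15 (chr15:5143861-5181899, plus strand) and its window is chr15:5143611-5143860. Prkaa2 lies on chromosome 4 (chr4:105029649-105109898, minus strand) and its window is chr4:105109899-105110148.
Prkaa1: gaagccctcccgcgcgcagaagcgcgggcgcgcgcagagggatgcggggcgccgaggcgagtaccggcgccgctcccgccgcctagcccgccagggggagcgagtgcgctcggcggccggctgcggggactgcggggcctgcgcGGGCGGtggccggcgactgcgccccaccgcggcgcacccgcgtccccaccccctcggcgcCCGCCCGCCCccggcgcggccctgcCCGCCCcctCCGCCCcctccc
Prkaa2: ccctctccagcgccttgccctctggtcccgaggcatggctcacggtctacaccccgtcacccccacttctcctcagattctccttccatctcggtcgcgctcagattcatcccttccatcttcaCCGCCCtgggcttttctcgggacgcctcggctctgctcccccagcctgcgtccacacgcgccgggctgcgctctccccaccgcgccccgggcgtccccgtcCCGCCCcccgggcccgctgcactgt
The Prkaa1 window was 85.2% G and C and held 45 CpG dinucleotides, a number reached by 0.405% of the 32851 windows of this length, whose median was 6. The Prkaa2 window was 70% G and C and held 24, a number reached by 12% of windows. Counting both strands, the GC box occurred 5 times before Prkaa1, with 1 pair of matches overlapping, and 2 times before Prkaa2, and 32.7% of all windows held at least 1. Neither window held CCAAT or TATAAA on either strand, which 33.8% and 12.4% of all windows did. Of the other members, Prkab2 had 5 GC box matches, Prkag1 had 1, Prkab1 and Prkag3 had 0, and the 3 alternative starts of Prkag2 had 1, 0 and 2. These letters describe the windows and say nothing of which factors bind there.

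Knockout and wild type were compared to ask whether the deletion shows in the subunit transcripts, and whether the remaining subunits moved with it. Prkaa1, encoding the catalytic alpha 1 subunit, was the gene of the complex with the largest genotype difference, lower by about 1 log2 unit in the knockout in both populations. In wild-type L-GMP arrays 1, 2 and 3 it measured 8.33, 7.99 and 8.12 log2 units, and in the knockout 7.31, 6.83 and 6.87. In wild-type whole leukemia it measured 8.69, 7.72 and 8.32, and in the knockout 7.40, 7.45 and 6.95. All 6 knockout arrays therefore lay below all 6 wild-type arrays whatever the population, the nearest pair being wild-type whole leukemia array 2 at 7.72 and knockout whole leukemia array 2 at 7.45. In linear intensity the wild-type arrays ranged from 211 to 413 and the knockout arrays from 114 to 175. The lowest knockout value, 6.83, stayed well above the cut for dim genes at 4.72. That cut is common to all probe sets, so it cannot tell remaining transcript from the background of this probe set. The labels do not say which exons were removed, and where the probes lie in the gene is not given in the sources used here. Transcript outside the deleted part may therefore be included in the knockout values.

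The Prkaa1 difference was -1.15 (SE 0.24, 95% interval -1.68 to -0.62, 0.452-fold) in L-GMP and -0.98 (SE 0.24, -1.51 to -0.45, 0.508-fold) in whole leukemia. Averaged over both populations it was -1.06 (SE 0.17, -1.44 to -0.69, 0.479-fold). By limma with Benjamini-Hochberg adjustment over the 17749 genes, Prkaa1 passed in none of the 3, with an adjusted p = 0.622, 0.592 and 0.102. In the averaged comparison it ranked 13 of 17749 by p (unadjusted p = 7.94e-05), and 70 genes, 0.394% of all, had an averaged difference of -1 or lower. An exact two-sided permutation test over the arrays of each population gave p = 0.1, the smallest that 3 against 3 can give. With genotype permuted within both populations at once, the exact p was 0.005, the smallest of its 400 arrangements. That test takes the 12 arrays as independent, as does the main limma fit, here and below. Same-numbered wild-type arrays of the populations deviated together from their group means (r = 0.363, 0.623 and 0.301 over genes). By this check they are not independent, while for the knockout arrays it stayed unclear. With arrays of equal number averaged, the exact test on the 3 means per genotype again gave p = 0.1, its smallest value. Limma fits with replicate blocks did not call Prkaa1 either. The call passed with array weights (adjusted p = 0.0455), while the adjusted p lay between 0.0616 and 0.248 without each single array. The gene was chosen with this difference already known, so none of these tests stands as independent evidence of it.

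Marker lists were read beside Prkaa1 by their means per array and by the number of tested genes on each side of 0. By limma 0 of their genes were called in any genotype comparison. Of all genes 0.00563% were called in L-GMP, 0% in whole leukemia and 0.0338% in the average, so few calls were possible. The mean of 6 MLL-AF9 target genes ran from 7.15 to 7.66 in the wild-type arrays and from 5.91 to 6.81 in the knockout arrays, and 6 of 6 lay below 0 in both populations. In whole leukemia the 7 monocyte genes were all below 0 (median -0.89, against 0.00 over all genes), the 10 neutrophil genes all above 0 (median 1.81) and the 7 erythroid genes all above 0 (median 1.83). Their array means there ran from 7.86 to 8.22 in the wild type and from 6.91 to 7.69 in the knockout for monocyte genes, from 7.23 to 9.97 and from 8.56 to 11.5 for neutrophil genes, and from 4.99 to 5.19 and from 5.15 to 9.31 for erythroid genes. In L-GMP the medians were -0.21 for monocyte, -0.05 for neutrophil and 0.18 for erythroid genes (0.02 over all genes), and the monocyte means overlapped between genotypes. The 5 eosinophil and mast cell genes had medians of 0.51 in L-GMP and 0.11 in whole leukemia. The means of 4 B cell genes (5.57 to 6.02) and of 6 T and NK cell genes (4.86 to 5.70) overlapped between genotypes in both populations. What part a different make-up of the sorted cells had in the Prkaa1 value was not tested.

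No member was called for a genotype difference that varied between the populations (0% of all genes), and 0 of 7 had an unadjusted p under 0.05 in that test (2.06% of all genes). The genotype difference of Prkaa1 was not distinguishable between the populations. The difference in L-GMP minus that in whole leukemia was -0.17 (SE 0.34, 95% interval -0.92 to 0.58, adjusted p = 1 by limma). Its sign turned without wild-type whole leukemia array 2, the lowest wild-type array, where it was 0.09.

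**Figure D1:**
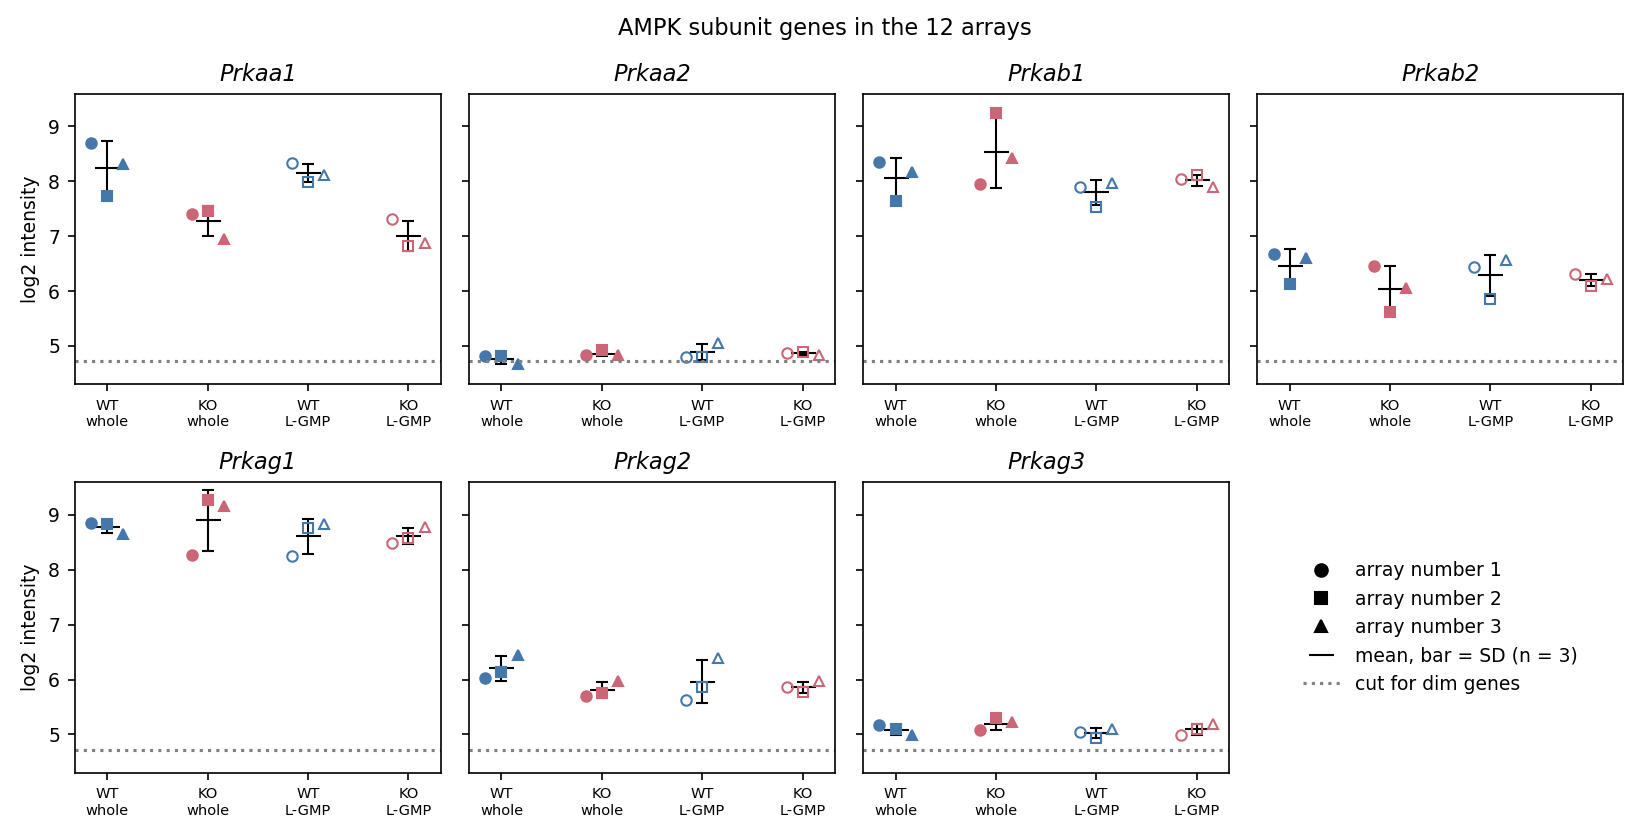
Log2 intensity of the 7 AMPK subunit genes in each of the 12 arrays, by genotype (blue, wild type; red, knockout) and population (filled, whole leukemia; open, L-GMP), with a symbol for each array number, the mean and SD of each group of 3 and the cut for dim genes as a dotted line. The red Prkaa1 points all lie below the blue ones, while the other 6 genes overlap in at least one population, and Prkaa2 lies close to the cut.

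Prkaa2, encoding the alpha 2 subunit, lay close to the cut for dim genes in all 12 arrays, from 4.66 to 5.05. The wild-type L-GMP arrays measured 4.79, 4.80 and 5.05 and the knockout 4.86, 4.88 and 4.83, so the groups overlapped. In whole leukemia the wild type measured 4.82, 4.81 and 4.66 and the knockout 4.84, 4.92 and 4.82. The knockout arrays there lay above the wild-type arrays, with the nearest pair both at 4.82. The differences were -0.02 (95% interval -0.22 to 0.18) in L-GMP and 0.10 (-0.11 to 0.30) in whole leukemia, with adjusted p = 1 and 0.895 by limma. This is near the level of probe sets left out as dim, at which a lower level would be hard to detect.

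The beta subunits hold the complex together and carry a glycogen-binding module. Prkab1, encoding beta 1, measured 7.89, 7.54 and 7.96 in the wild-type L-GMP arrays and 8.04, 8.11 and 7.90 in the knockout. In whole leukemia it measured 8.35, 7.64 and 8.17 in the wild type and 7.96, 9.24 and 8.42 in the knockout. The groups overlapped in both populations. The knockout minus wild-type difference was 0.22 (SE 0.29, 95% interval -0.43 to 0.86) in L-GMP and 0.49 (SE 0.29, -0.16 to 1.13) in whole leukemia (limma adjusted p = 1 and 0.845). Without knockout whole leukemia array 2, the array of high erythroid and neutrophil markers, the latter was 0.13, and without knockout whole leukemia array 1 it was 0.78. The part of those cells in the Prkab1 value was not tested.

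Prkab2, encoding beta 2, measured 6.44, 5.86 and 6.56 in wild-type and 6.30, 6.09 and 6.22 in knockout L-GMP. In whole leukemia it measured 6.67, 6.12 and 6.61 in the wild type and 6.46, 5.61 and 6.05 in the knockout. The groups overlapped in both populations, and within each wild-type group array 2 was the lowest, as it was for Prkaa1 and Prkab1. The differences were -0.09 (95% interval -0.62 to 0.45) and -0.42 (-0.96 to 0.11), with limma adjusted p = 1 and 0.835. Without knockout whole leukemia array 2, which had the lowest Prkab2 value of all 12 arrays, the whole leukemia difference was -0.21, and without knockout whole leukemia array 1 it was -0.63.

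The gamma subunits bind AMP, ADP and ATP. Prkag1, encoding gamma 1, had equal means in both genotypes of L-GMP, 8.61 ± 0.32 (SD, n = 3) in wild-type and 8.61 ± 0.14 in knockout L-GMP. In whole leukemia it measured 8.85, 8.83 and 8.66 in the wild type and 8.26, 9.28 and 9.16 in the knockout, where the spread was wider (8.90 ± 0.55). Its genotype difference was 0.00 (95% interval -0.54 to 0.55) in L-GMP and 0.12 (-0.43 to 0.67) in whole leukemia. A change of Prkag1 as large as that of Prkaa1 lies outside both intervals.

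Prkag2, encoding gamma 2, measured 5.63, 5.87 and 6.39 in wild-type and 5.86, 5.77 and 5.96 in knockout L-GMP, and these groups overlapped. In whole leukemia it measured 6.03, 6.13 and 6.45 in the wild type and 5.70, 5.75 and 5.97 in the knockout. There all 3 knockout arrays were lower, the nearest pair lying at 5.97 and 6.03. The differences were -0.10 (95% interval -0.51 to 0.31) in L-GMP and -0.40 (SE 0.18, -0.81 to 0.01, 0.759-fold) in whole leukemia, with limma adjusted p = 1 and 0.829. The other probe set that reads Prkag2 is also assigned to the antisense gene Prkag2os1, and the 2 transcripts cannot be told apart in it. It measured 5.35 ± 0.15 (SD, n = 3) in wild-type and 5.34 ± 0.18 in knockout whole leukemia, so the lower Prkag2 value was not seen there.

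Prkag3, encoding the muscle form gamma 3, ranged from 4.93 to 5.30 over the 12 arrays, not far above the cut for dim genes. It measured 5.03 ± 0.09 (SD, n = 3) in wild-type and 5.09 ± 0.10 in knockout L-GMP, and 5.08 ± 0.09 and 5.20 ± 0.12 in wild-type and knockout whole leukemia. The differences were 0.06 and 0.11 (95% intervals -0.15 to 0.28 and -0.10 to 0.33), and the groups overlapped in both populations.

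As a set, 0 of 7 members were called by limma in L-GMP, where 0.00563% of all genes were, 0 of 7 in whole leukemia (0% of all genes) and 0 of 7 in the averaged comparison (0.0338% of all genes, or 6 genes). At an unadjusted p under 0.05 the count was 1 of 7, Prkaa1, in each of the 3 comparisons, against 4.13%, 5.97% and 7.72% of all genes. Wild-type and knockout arrays did not overlap for 1 of 7 members in L-GMP (9.48% of all genes) and for 3 of 7 in whole leukemia (11.2% of all genes), namely Prkaa1 and Prkag2, which were lower, and Prkaa2, which was higher. Prkaa1 was the 1 member without overlap in the same direction in both populations, which held for 1.23% of all genes. In the averaged comparison 4 members lay above 0 and 3 below, with a median of 0.04 against 0.01 over all genes. Apart from Prkaa1, the averaged differences ranged from -0.26 for Prkab2 to 0.35 for Prkab1, and all 6 of their 95% intervals held 0.

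**Figure D2:**
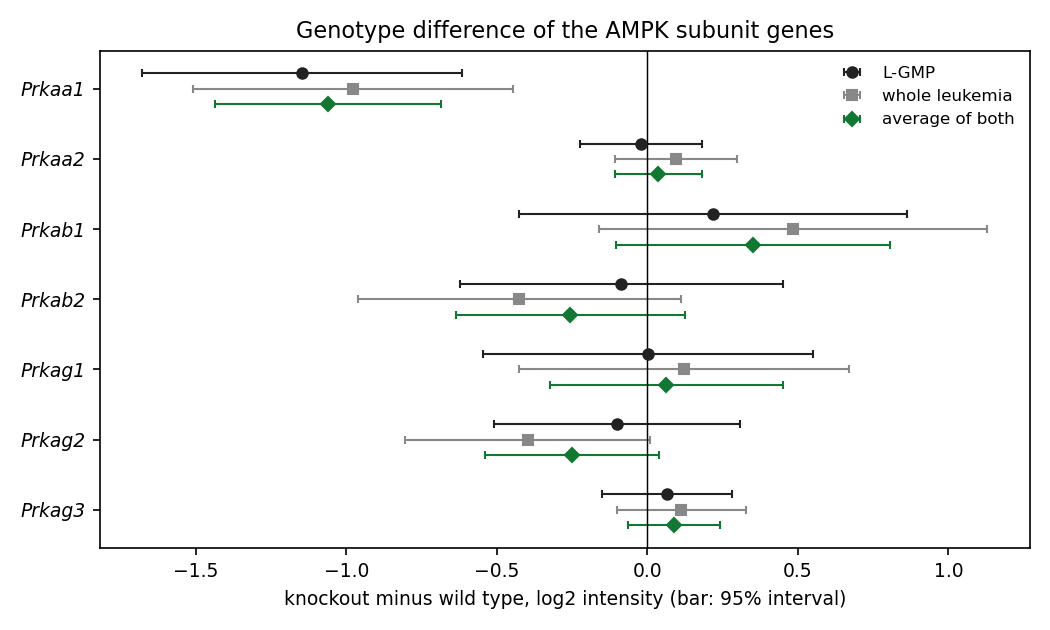
Knockout minus wild-type difference of each AMPK subunit gene in log2 intensity, with 95% intervals from limma, in L-GMP, in whole leukemia and averaged over both. The 3 Prkaa1 intervals lie below 0 (the averaged one from -1.44 to -0.69), and those of the other 6 genes all include 0.

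The comparison of L-GMP with whole leukemia within a genotype asks whether the progenitor fraction differs from the bulk in its AMPK subunits. No difference was detectable for any member. In the wild type 0 of 7 were called by limma (0% of all genes), and in the knockout again 0 of 7 (0% of all genes). At an unadjusted p under 0.05 the counts were also 0 of 7, against 2.5% of all genes (443) for wild-type and 7.39% (1312) for knockout arrays. L-GMP and whole leukemia arrays overlapped for all 7 members in both genotypes, whereas they did not for 10.3% and 10.2% of all genes. For Prkaa1 the L-GMP minus whole leukemia difference was -0.10 (95% interval -0.63 to 0.44) in the wild type and -0.27 (-0.80 to 0.27) in the knockout (limma adjusted p = 1 and 0.814). The member furthest from 0 was Prkab1 in the knockout at -0.52 (SE 0.29, -1.17 to 0.12, adjusted p = 0.699), which was -0.17 without knockout whole leukemia array 2 and -0.81 without knockout whole leukemia array 1. The wild-type differences of Prkab1, Prkab2, Prkag1 and Prkag2 were all below 0, from -0.26 to -0.17. The widest of these intervals, that of Prkab1, ran from -0.90 to 0.39, so differences of this size in either direction are not excluded by 3 arrays per group.

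**Figure D3:**
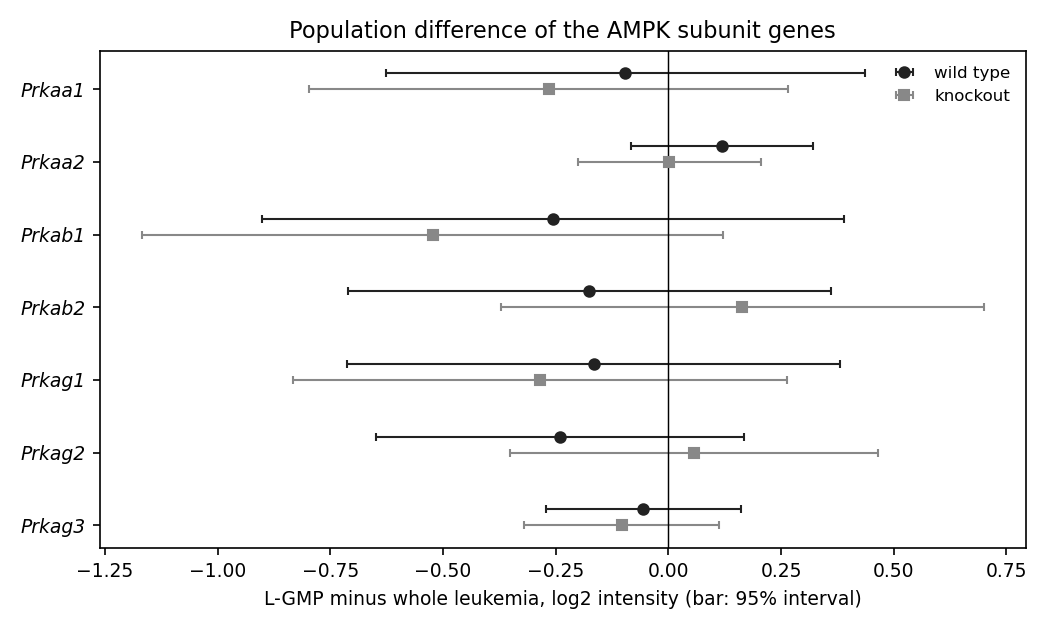
L-GMP minus whole leukemia difference of each AMPK subunit gene in log2 intensity, with 95% intervals from limma, in the wild type (circles) and in the knockout (squares). All 14 intervals include 0.

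Ordered by group mean, Prkaa1 ran from wild-type whole leukemia (8.24 ± 0.49) through wild-type L-GMP (8.15 ± 0.17) and knockout whole leukemia (7.27 ± 0.27) to knockout L-GMP (7.0 ± 0.27, SD, n = 3). Neighbours of one genotype overlapped, and the step of 0.88 between the genotypes was the 1 step of the order without overlap. For Prkab1, Prkab2, Prkag1, Prkag2 and Prkag3 every pair of neighbouring groups overlapped. The order of Prkab1 and Prkag1 began with knockout whole leukemia (8.54 and 8.90) and that of Prkab2 and Prkag2 ended with it (6.04 and 5.81). For Prkaa2 the lowest group, wild-type whole leukemia at 4.76, lay apart from the next by 0.10 in mean, at a level where differences are compressed.

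Across the 12 arrays the highest Pearson correlation between members was that of Prkab1 with Prkag3 (r = 0.73, Spearman rho = 0.58, n = 12 arrays), followed by Prkag1 with Prkag3 (r = 0.66). Without knockout whole leukemia array 2 these were 0.54 and 0.50. Prkaa1 was closest to Prkab2 (r = 0.53, rho = 0.56). These arrays share labelling and scaling, and the values are descriptions without a test.

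The genes whose pattern over the 12 arrays was most like that of Prkaa1 were chosen by Pearson correlation among named genes. Because the Prkaa1 values fall into 2 clusters by genotype, the correlation over all arrays mainly reflects genotype, and the values within the 6 arrays of each genotype are given as well. The most like was Ceacam9, a member of the carcinoembryonic antigen family, with r = 0.91 over all arrays, 0.82 within the wild type and 0.80 within the knockout, although its level of 4.93 to 5.36 was near the cut for dim genes. Pja2, a ubiquitin ligase, followed with r = 0.88, and 0.76 and 0.85 within the genotypes. Dmtf1, a Myb-like transcription factor (r = 0.86), Kcne3, a potassium channel subunit (0.85), and Snx1, a sorting nexin of endosomes (0.85), had values of -0.01 and 0.80, of 0.79 and -0.60, and of 0.42 and 0.18 within the wild type and the knockout. All 5 were picked on the same 12 arrays, so the values within a genotype are not independent of that choice. Their own knockout minus wild-type differences in L-GMP and whole leukemia were all below 0. They were small for Ceacam9 (-0.24 and -0.15) and Pja2 (-0.23 and -0.16). Larger ones were those of Dmtf1 (-0.48 and -0.35), Kcne3 (-0.65 and -0.93) and Snx1 (-0.59 and -0.59). Most like Prkab1 were Trim17, Phlda1 and Igf1 (r = 0.96, 0.96 and 0.95), and most like Prkag1 were Tab2, Pgc and Plek (0.96, 0.92 and 0.91). Most like Prkab2 were Atrnl1, Frrs1 and Vps8 (0.89, 0.88 and 0.87), and most like Prkag2 were Mir196a-2, Zmat4 and Zfp712 (0.91, 0.87 and 0.86). For the members nearest the cut for dim genes these were Miat, Mir23b and Nxph1 for Prkaa2 (0.88, 0.87 and 0.86) and Upp1, Scgb1b3 and Gfpt1 for Prkag3 (0.90, 0.90 and 0.89). The genes most like these other members were likewise picked as the highest on the same arrays. Without the 2 arrays in which the member lay farthest from its median, r was 0.42 for Nxph1, 0.50 for Zmat4 and 0.51 for Miat. For the rest of them it ran from 0.64 (Zfp712) to 0.92 (Trim17).

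Genes next to the catalytic subunit genes were examined as a check on the locus, taking the 5 nearest tested genes on each side in the RefSeq order. These were Snord72, Rpl37, Card6, Mroh2b and C6 before and Ttc33, Ptger4, Dab2, C9 and Fyb after Prkaa1, and C8a, C8b, Dab1, Gm12718 and Oma1 before and Plpp3, Usp24, Bsnd, Tmem61 and Lexm after Prkaa2. Around Prkaa1, 6 of 10 neighbours lay above 0 in the averaged genotype comparison and 4 below, with a median of 0.02 against 0.01 over all genes. By limma 0 of them were called there, against 0.0338% of all genes. The 3 genes that follow Prkaa1 in position had higher values in the knockout with an unadjusted p under 0.05 in that comparison, 3 of 10 neighbours against 7.72% of all genes. They are Ttc33, encoding a tetratricopeptide repeat protein (0.30, SE 0.09, limma adjusted p = 0.483), the prostaglandin E2 receptor gene Ptger4 (0.48, SE 0.17, adjusted p = 0.545) and the endocytic adaptor gene Dab2 (0.50, SE 0.20, adjusted p = 0.602). For Ttc33 the knockout whole leukemia arrays (6.03, 6.08 and 6.30, from lowest to highest) lay above the wild-type arrays (5.77, 5.94 and 5.96). In L-GMP its arrays overlapped between genotypes. The genotypes did not overlap in whole leukemia for 2 of 10 neighbours, against 11.2% of all genes. The other was C9, which was lower in the knockout there (-0.05, SE 0.07). Rpl37, a ribosomal protein gene on the other side of Prkaa1, differed by 0.01 (SE 0.08).

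Around Prkaa2, 4 of 10 neighbours lay above 0 and 6 below, with a median of -0.05, and again 0 were called (0.0338% of all genes). The exception in size was Usp24, a deubiquitinase gene and the second tested gene after Prkaa2. It measured 7.32, 7.32 and 7.33 in wild-type and 7.79, 7.92 and 8.15 in knockout L-GMP, from lowest to highest. In whole leukemia the values were 7.01, 7.25 and 7.38 in the wild type and 7.64, 7.75 and 7.85 in the knockout. Every knockout array lay above every wild-type array in both populations. Non-overlap in the same direction in both held for 1.23% of all genes. The averaged difference was 0.58 (SE 0.08, 95% interval 0.39 to 0.77, limma adjusted p = 0.073), which passed with array weights (adjusted p = 0.0444) and without wild-type whole leukemia array 3 (0.0484) and reached 0.206 without other single arrays. Plpp3, which lies between Prkaa2 and Usp24, differed by -0.04 (SE 0.06), and Prkaa2 itself by 0.04 (SE 0.06).

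**Figure D4:**
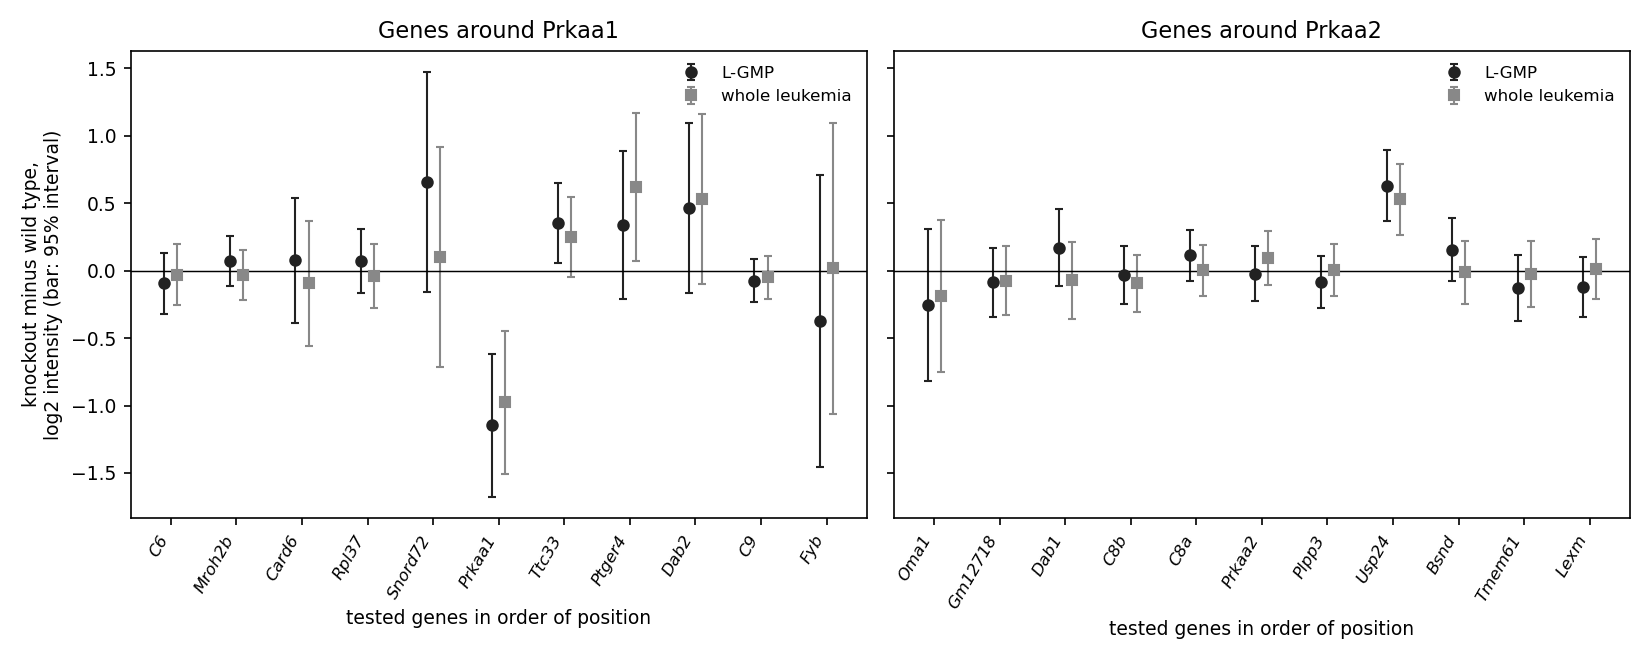
Knockout minus wild-type difference in log2 intensity, with 95% intervals from limma, for Prkaa1 and Prkaa2 and the 5 nearest tested genes on each side, in order of position and not to scale, in L-GMP (circles) and whole leukemia (squares). Prkaa1 stands below its neighbours at -1.15 and -0.98, and Usp24 above those of Prkaa2 at 0.63 and 0.53.

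Genes that act with AMPK were described from lists, with the averaged genotype comparison as the measure. Of 8 genes for upstream kinases and their partners 7 were tested, 4 above 0 and 3 below with a median of 0.04 (0.01 over all genes). By limma 0 were called in either direction, against 0.0338% of all genes. Stk11, encoding LKB1, had a difference of 0.16 (SE 0.12) and Strada, its pseudokinase activator, one of -0.24 (SE 0.07, adjusted p = 0.451). Strada measured 6.92 ± 0.17 and 6.74 ± 0.01 (SD, n = 3) in wild-type and knockout L-GMP and 6.94 ± 0.12 and 6.64 ± 0.02 in whole leukemia. Its arrays did not overlap between genotypes in either population, which held in the same direction for 1.23% of all genes.

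Of 12 regulators of AMPK, which include the folliculin complex, phosphatases and sestrins, 11 were tested, 7 above 0 and 4 below with a median of 0.05. Of these 0 were called, against 0.0338% of all genes. The lowest p belonged to the phosphatase genes Ppm1e (0.18, SE 0.11) and Ppm1a (0.18, SE 0.13). The sestrin genes Sesn1, Sesn2 and Sesn3, which respond to stress, had differences of 0.29 (SE 0.25), 0.13 (SE 0.15) and 0.01 (SE 0.17).

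Of 24 AMPK substrates 22 were tested, 13 above 0 and 9 below with a median of 0.08. By limma 0 were called (0.0338% of all genes), while 3 had an unadjusted p under 0.05, against 7.72% of all genes. These were Eef2k, the kinase that slows translation elongation (0.32, SE 0.08, limma adjusted p = 0.342), the cholesterol regulator gene Srebf2 (0.36, SE 0.13, adjusted p = 0.539) and Pfkfb3, which raises glycolytic flux (0.35, SE 0.12, adjusted p = 0.539). For Eef2k the L-GMP arrays of the genotypes did not overlap, at 6.72 to 6.93 in the wild type and 7.15 to 7.46 in the knockout. This held for 9.48% of all genes. Its whole leukemia arrays overlapped, at 6.60 to 6.80 and 6.72 to 7.01. The acetyl-CoA carboxylase genes Acaca and Acacb, whose products are the textbook substrates of AMPK, differed by 0.15 (SE 0.11) and -0.005 (SE 0.06). The group means of Acacb, 5.04 to 5.05, lay near the cut for dim genes, where a difference would be hard to detect.

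Of 12 genes of adenine nucleotide handling, which set the levels of the nucleotides that AMPK senses, 10 were tested, 5 above 0 and 5 below with a median of 0.02. Of these 0 were called, against 0.0338% of all genes. Ada, encoding adenosine deaminase, measured 6.79 ± 0.19 in wild-type and 7.49 ± 0.32 in knockout L-GMP, and 6.95 ± 0.29 and 7.95 ± 0.40 (SD, n = 3) in wild-type and knockout whole leukemia. Every knockout array lay above every wild-type array of its population, as was also so for Ak4. Non-overlap in the same direction in both populations held for 1.23% of all genes. Its averaged difference was 0.85 (SE 0.16, 95% interval 0.48 to 1.21, limma adjusted p = 0.177), and the adjusted p was 0.0444 with array weights and 0.136 to 0.409 without each single array. Ak4, the mitochondrial adenylate kinase gene, had a difference of 0.88 (SE 0.47). Its size rested on knockout L-GMP array 2, the array of high eosinophil and mast cell markers. That array measured 8.88, against 5.58 and 5.88 in the other 2 arrays of that group, and without it the difference was 0.36. The wild-type L-GMP arrays reached 5.44 at most. In whole leukemia Ak4 ran from 4.93 to 5.11 in the wild type and from 5.18 to 5.29 in the knockout. Its arrays thus did not overlap between genotypes in either population.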

How the data were processed

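RNA of sorted cells was amplified and biotin-labelled for 1-colour arrays (NuGEN kits, per the labels' protocols). The deposited values are linear probe set intensities, already on a common scale over the 12 arrays; how the authors summarised and normalised them is not given in the sources used here. Of 33794 probe sets, 23521 carried 1 symbol, 1814 several and 8459 none; 99.2% of the gene IDs of the first were found in the RefSeq table and 0 symbols changed. Values were taken as log2 with no pseudocount. Each gene was read from its probe set of highest mean, and the 4431 genes under the lowest 25% of probe sets (log2 4.72) were left out.

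The groups came from the labels. limma 3.58.1 (R 4.3.3) fitted 1 mean per group over all 12 arrays, with 6 contrasts, 8 residual and 2.36 prior degrees of freedom and Benjamini-Hochberg adjustment over 17749 genes; a call is an adjusted p under 0.05. The fit was tested on simulated data. The number of arrays limits the precision. The members and all gene lists (upstream kinases, regulators, substrates, adenine nucleotide handling, sorting gate, MLL-AF9 targets and cell type markers) were chosen with earlier results of these data known. Named genes are the members, the 2 genes of lowest p of each pathway list with all at an unadjusted p under 0.05, the neighbours and the most correlated genes; Sesn1 to Sesn3, Acaca, Acacb and Rpl37 were added as examples after their values were seen. Promoter sequences are those of RefSeq for GRCm38.p6, and 7 of 7 members matched; the build behind the array is not given in the sources used here.

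Alternatives were other normalisations, filters, variance models, array weights, an added 16 before the logarithm, replicate blocks and leaving out each array. Deviations from the group means of same-numbered wild-type whole leukemia and L-GMP arrays correlated at 0.363, 0.623 and 0.301 over genes, so by this check the numbers pair the wild-type samples; the labels do not state a pairing.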

Additional observations from a re-analysis of the deposited data

How the results depend on the processing

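Over the member genes and other named genes, 1310 of 1350 recomputed values kept their direction and their side of the threshold, 4 passed it and 36 changed sign. Prkaa1 stayed lower in the knockout throughout, from -1.30 to -1.06 without single arrays in L-GMP, -1.24 to -0.75 in whole leukemia and -1.19 to -0.95 in the average, whose adjusted p passed with array weights alone (-1.03, adjusted p = 0.0455, range over all settings 0.0455 to 0.248). The sign changes were in differences whose 95% intervals included 0. With array weights these were Prkag1 (-0.19) and Prkag3 (-0.018) in L-GMP, Prkaa2 in the average (-0.010), Prkaa1 (0.045) and Prkag2 (-0.022) between the populations of the knockout, and the Prkaa1 interaction (0.13). Prkag1 in L-GMP was -0.025 after quantile normalisation and -0.010 after centring. Without both number-2 knockout arrays, a choice made after seeing the data, Prkag1 was -0.068 in whole leukemia and -0.024 in the average, and the interactions of Prkaa1, Prkab1 and Prkag1 were 0.0086, 0.038 and 0.087. Leaving out single arrays, L-GMP differences ran from -0.067 to 0.063 for Prkaa2, -0.30 to 0.051 for Prkab2, -0.18 to 0.11 for Prkag1 and -0.27 to 0.11 for Prkag2. Prkag1 ran from -0.068 to 0.44 in whole leukemia and -0.032 to 0.22 in the average. Wild-type population differences ran from -0.36 to 0.13 for Prkaa1, -0.35 to 0.038 for Prkab2 and -0.27 to 0.017 for Prkag1, and knockout ones from -0.014 to 0.031 for Prkaa2 and -0.050 to 0.37 for Prkab2. Interactions ran from -0.39 to 0.091 for Prkaa1, -0.56 to 0.085 for Prkab1, -0.44 to 0.071 for Prkag1 and -0.11 to 0.0053 for Prkag3. The number of genes called in L-GMP (1) was 0 without a filter, with only the groups compared and with the replicate block by number, 2 with trended and robust variance or the mean of all probe sets, 4 with array weights and 0 to 2 without single arrays. In whole leukemia (0) it was 1 without both number-2 knockout arrays and 0 to 1 without single arrays. In the average (6) it was 3 after centring, with the mean of all probe sets or with 16 added, 2 with the random block, 51 with array weights and 1 to 15 without single arrays (1 without wild-type whole leukemia array 1, 15 without wild-type L-GMP array 1). Between the populations of the knockout (0) it was 1 with the lowest 50% left out or trended variance, 2 with 16 added or the random block, and 0 to 40 without single arrays (40 without knockout whole leukemia array 1). With the replicate block by number, the averaged Prkaa1 difference had an adjusted p = 0.0875, and with a random block by genotype and number 0.166; neither block changed the call of a member. Same-numbered knockout arrays correlated at 0.133, 0.0905 and 0.432, while knockout whole leukemia array 1 and L-GMP array 2 correlated at 0.190. By this check it stays unclear whether the numbers pair the knockout samples. Prkaa2 and Prkag3 had no value with the lowest 50% left out. Another probe set per member could not be tried, since each has 1.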
